A study of Mus musculus with 8 samples.

Results

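The data describe 10 genes of serine, asparagine, proline and folate one-carbon metabolism in the C3H10T1/2 line of mouse mesenchymal stem cells (MSCs), which can be induced to become adipocytes. The genes are *Phgdh*, *Psat1*, *Psph*, *Shmt1*, *Shmt2*, *Mthfd2*, *Mthfd1l*, *Aldh1l2*, *Asns* and *Pycr1*. They were chosen by symbol for the role of their enzymes, with earlier results of these data known. All 10 were found among the 41325 gene symbols listed in each library. Levels are given as RPKM, the reads of a gene scaled to its exon length and to the mapped reads of the library. All 10 had an RPKM over 1 in every library, so none was lost to the filter on low values.

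RNA-seq was performed on 4 lines at day 0 and at day 5 of adipogenic differentiation, with 1 library for each of the 8 conditions. The shControl cells, whose genotype the labels give as WT, were compared with stable knockdown cells named shKDM4D, shNFIB and shMLL1 after the protein whose mRNA the short hairpin RNA targets. KDM4D is a histone H3 lysine demethylase, NFIB a DNA-binding transcription factor, and MLL1 a histone H3 lysine methyltransferase encoded by *Kmt2a*. The knockdown lines were clones that carried the hairpin in the pLKO.1 vector and were selected with puromycin. More than 1 clone was made per target, and which clone was sequenced is not given in the sources used here. Day 0 cells were taken before induction. For day 5 the cells of all 4 lines received insulin, dexamethasone and isobutylmethylxanthine, then insulin, and then medium with serum. As each condition is 1 library, a clone, its hairpin and its library cannot be told apart, so neither a single line nor a line against shControl cells has a p-value. There, a gene is described as having risen or fallen only where its RPKM differed by more than 2-fold. The change between the days shared by the 4 lines was tested with the line as a block.

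Between 15800000 and 38200000 mapped reads were recovered per library, and the 10 genes were covered by 166 to 10470 reads each. The 95% intervals given with the log2 ratios are exact intervals from those reads and cover counting error only. The targeted *Nfib* fell in shNFIB cells (log2 ratios to shControl of -2.10 at day 0 and -2.33 at day 5) and *Kmt2a* fell in shMLL1 cells (-1.37 and -1.70). *Kdm4d* was barely covered, by 2 and 1 reads at day 0 and by 13 and 4 reads at day 5 in the shControl and shKDM4D libraries, so this depth cannot show its knockdown at day 0. Of 8 mesenchymal markers only *Thy1* was under an RPKM of 1 in any library, and it was at or below 0.14 in shKDM4D and shNFIB cells. The summed RPKM of 6 leukocyte markers was at most 2.24 in any library. A pair of rows with ribosomal RNA-like sequence took 7.95% to 10.5% of the mapped reads at day 0 and 3.07% to 3.62% at day 5, and its part in the changes between days was not tested.

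Serine is made from the glycolytic intermediate 3-phosphoglycerate in consecutive steps catalysed by PHGDH, PSAT1 and PSPH. The serine hydroxymethyltransferases SHMT1 (cytosol) and SHMT2 (mitochondria) split serine into glycine and a one-carbon unit carried by tetrahydrofolate, which MTHFD2, MTHFD1L and ALDH1L2 then process in mitochondria for the synthesis of purines and thymidylate and for the supply of formate, CO2 and NADPH. ASNS makes asparagine from aspartate, and PYCR1 carries out the last step of proline synthesis. Several of these genes are textbook targets of ATF4, a transcription factor whose mRNA is translated when amino acids are scarce or the endoplasmic reticulum is stressed. ATF4 binds the C/EBP-ATF response element, whose core was searched here as TGATGNAA on both strands. Proliferating cells are known for high use of these pathways.

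A stretch near the start of *Asns* and one upstream of *Pycr1* are shown because they carry that core. RefSeq promoter windows on GRCm38.p6, from 250 bases before to 50 bases after the annotated start, were at hand for 9 of the 10 genes, and *Psat1* had more than 1 window. The core was present in the windows of 2 of these 9 genes, and in 3.97% of all 32851 windows. Capitals mark the core. The stretch of *Asns* covers chr6:7693214-7693243 and that of *Pycr1* chr11:120643779-120643898, both written 5′ to 3′ on the minus strand, the strand of the genes. In *Asns* the core lies at bases -23 to -16 from the RefSeq start, but inside the gene as GENCODE M21 annotates it, with a start further upstream, and in *Pycr1* at bases -103 to -96. A match of letters does not show binding, and the lack of one in the other windows says only that these letters are not there.
Asns: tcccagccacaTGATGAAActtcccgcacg
Pycr1: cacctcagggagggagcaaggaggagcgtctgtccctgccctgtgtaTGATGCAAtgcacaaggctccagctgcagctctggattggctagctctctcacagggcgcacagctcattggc

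To see how the enzymes behave when MSCs differentiate normally, day 5 was compared with day 0 in shControl cells. Of the 10 genes, 9 fell by more than 2-fold and 0 rose, with a median log2 ratio of -2.16, which is a 4.48-fold lower RPKM. Among the 11513 genes that exceeded an RPKM of 1 in some library, 8.56% fell and 13% rose by more than 2-fold, and the median log2 ratio was 0.03. The summed RPKM of the 10 genes was 475 at day 0 and 97.8 at day 5. In shKDM4D cells 9 of 10 genes fell by more than 2-fold (8.44% of all genes fell and 12.8% rose), with a median of -1.52 and a summed RPKM of 443 at day 0 and 129 at day 5. Relative to *Gapdh*, whose RPKM was 326 and 236 in shKDM4D cells, 6 of the 10 genes fell by more than 2-fold there, without *Psph*, *Shmt1* and *Mthfd1l*, and the median was -1.05 (0.50 over all genes). In shNFIB cells 0 of 10 genes passed 2-fold in either direction (4.96% of all genes fell and 12.6% rose). Their summed RPKM was 199.9 at day 0, already well below that of shControl cells, and 200.8 at day 5. Relative to *Gapdh*, whose RPKM was 159 and 235 in shNFIB cells, the median change was -0.55 (-0.48 over all genes) and 1 gene, *Shmt1*, fell by more than 2-fold. In shMLL1 cells 2 of 10 genes, *Psat1* and *Shmt2*, fell by more than 2-fold (6.89% of all genes fell and 20.4% rose), and the summed RPKM was 334 at day 0 and 216 at day 5. *Shmt1* became a further gene past 2-fold in shMLL1 cells under median-of-ratios scaling, under quantile normalization and relative to *Gapdh*, with log2 ratios of -1.10, -1.07 and -1.004.

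Over the 4 lines together, with the line as a block (limma on log2(RPKM + 0.1), Benjamini-Hochberg adjusted p under 0.05 over 11513 genes), 4 of the 10 genes were lower at day 5 and 0 were higher, where 21% of all genes were lower and 29% higher. At an unadjusted p under 0.05, 7 of the 10 were lower and 0 higher. Of the 11513 genes, 6677 passed in either direction. The share of all genes lower at that limit was not computed, so how unusual the 7 are cannot be told. The mean log2 change was -1.12 ± 0.17 (SE, n = 4 lines, adjusted p = 0.0036) for *Shmt1*, -1.56 ± 0.37 (adjusted p = 0.015) for *Shmt2*, -1.55 ± 0.39 (adjusted p = 0.019) for *Psat1* and -1.03 ± 0.23 (adjusted p = 0.013) for *Mthfd1l*, each lower in 4 of 4 lines. The other 6 genes had adjusted p-values between 0.0501 for *Phgdh* and 0.56 for *Pycr1*. Of these, *Phgdh* was lower in 4 of 4 lines, *Psph*, *Mthfd2* and *Asns* in 3, and *Aldh1l2* and *Pycr1* in only 2. Without the shKDM4D libraries 1 of the 10 genes was lower in this limma fit, and without the shNFIB libraries 8 were. Relative to *Gapdh* 9 were lower, and with no filter on RPKM 0 were. The shares of all genes called in these other fits were not computed. The fit was added after the data were seen. It treats the lines as replicates of the day change, which differed between them as described next to each gene.

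**Figure D1:**
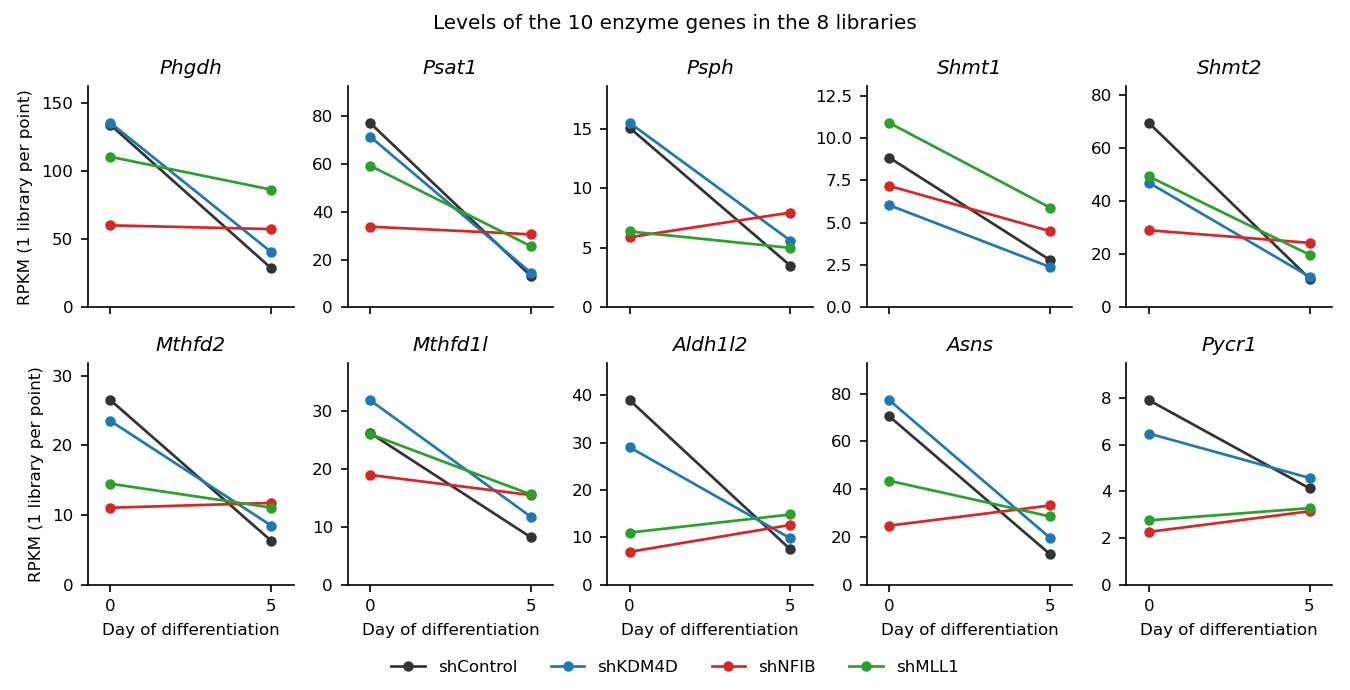
RPKM of the 10 genes on the y axis (a linear scale of its own for each gene, starting at 0) against the day of differentiation, with 1 point per library and a line joining the 2 libraries of a cell line. The shControl and shKDM4D lines drop steeply for 9 genes and less so for *Pycr1*, while the shNFIB lines stay within 2-fold and the summed RPKM of shNFIB cells is 199.9 at day 0 and 200.8 at day 5.

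The 3 serine synthesis genes had the highest summed RPKM of the groups in every library, 226 in shControl cells at day 0 against 170 for the 5 folate genes and 78.4 for *Asns* and *Pycr1*. *Phgdh*, which encodes the first and committed enzyme (chromosome 3 of GRCm38, from 98313170 to 98339990, minus strand, protein coding like all 10), went from an RPKM of 134 at day 0 to 28.7 at day 5 in shControl and from 135 to 40.5 in shKDM4D cells. The shNFIB values were 60.0 and 57.3, and the shMLL1 values 110.2 and 86.2. The lowest library was shControl at day 5 and the 2 highest were shControl and shKDM4D at day 0, with both shNFIB libraries in between. The change from day 0 to day 5 was -2.22 (95% interval -2.30 to -2.14) on the log2 scale in shControl cells and -0.07 (-0.15 to 0.01) in shNFIB cells. *Phgdh* also showed the largest excess over shControl cells at day 5 among the 10 genes, a 3.01-fold higher RPKM in shMLL1 cells (log2 ratio 1.59, interval 1.51 to 1.67).

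*Psat1*, the aminotransferase of the second step (chromosome 19, from 15904678 to 15947337, minus strand), went from an RPKM of 77.3 at day 0 to 13.1 at day 5 in shControl, from 71.6 to 14.5 in shKDM4D, from 33.8 to 30.6 in shNFIB and from 59.4 to 25.6 in shMLL1 cells. All day 0 libraries were thus above all day 5 libraries. The fall with differentiation was 5.88-fold in shControl cells, 4.92-fold in shKDM4D cells and 2.32-fold in shMLL1 cells, and the shNFIB ratio was -0.14 (-0.23 to -0.06) on the log2 scale. At day 5 *Psat1* was 2.33-fold higher in shNFIB than in shControl cells.

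*Psph*, the phosphatase that releases serine (chromosome 5, from 129765558 to 129787449, minus strand), was the least abundant of the group. Its RPKM went from 15.1 at day 0 to 3.50 at day 5 in shControl, from 15.5 to 5.61 in shKDM4D, from 5.89 to 7.96 in shNFIB and from 6.37 to 4.99 in shMLL1 cells. The day 0 values formed a high pair (shControl and shKDM4D) and a low pair (shNFIB and shMLL1). On the log2 scale the day 0 level relative to shControl was -1.36 (-1.51 to -1.21) in shNFIB cells and -1.24 (-1.35 to -1.13) in shMLL1 cells. The ratio of *Phgdh* to *Psph* within a library was 17.3 in shMLL1 cells on both days and between 7.20 and 10.2 in the other 6 libraries. *Psph* overlaps *Cct6a* on the opposite strand. *Psat1*, *Shmt1*, *Shmt2* and *Aldh1l2* likewise overlap an annotated gene on the opposite strand and *Mthfd2* and *Mthfd1l* one on the same strand, and the strand setting used to count reads is not given in the sources used here.

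In the folate group, *Shmt2*, the mitochondrial partner of *Shmt1* (chromosome 10, from 127517123 to 127522444, minus strand), went from an RPKM of 69.6 at day 0 to 10.9 at day 5 in shControl, from 47.0 to 11.6 in shKDM4D, from 29.1 to 24.3 in shNFIB and from 49.4 to 19.9 in shMLL1 cells. With a 6.41-fold decrease (log2 ratio -2.68, interval -2.80 to -2.56), it had the largest fall of the 10 genes in shControl cells. *Shmt2* was also the gene with the lowest ratio in shKDM4D cells at day 0, at -0.57 (-0.63 to -0.50), short of 2-fold.

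*Shmt1* (chromosome 11, from 60788104 to 60811718, minus strand) went from an RPKM of 8.85 at day 0 to 2.80 at day 5 in shControl, from 6.04 to 2.38 in shKDM4D, from 7.17 to 4.50 in shNFIB and from 10.9 to 5.90 in shMLL1 cells. It was the only gene of the 10 that was highest in shMLL1 cells on both days, with a log2 ratio to shControl cells of 0.30 (0.18 to 0.42) at day 0 and 1.08 (0.86 to 1.30) at day 5. The level of *Shmt2* relative to *Shmt1* within a library went from 7.87 at day 0 to 3.88 at day 5 in shControl cells and from 7.79 to 4.85 in shKDM4D cells. It was 4.05 at day 0 and 5.40 at day 5 for shNFIB and 4.53 and 3.37 for shMLL1. The highest values were those of the day 0 libraries of shControl and shKDM4D cells.

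*Mthfd2*, a bifunctional mitochondrial dehydrogenase and cyclohydrolase (chromosome 6, from 83305691 to 83325908, minus strand), went from an RPKM of 26.5 at day 0 to 6.31 at day 5 in shControl, from 23.5 to 8.49 in shKDM4D, from 11.05 to 11.75 in shNFIB and from 14.5 to 11.1 in shMLL1 cells. Its ratio to the related gene *Mthfd2l* was 14.4 in shControl and 14.2 in shKDM4D cells at day 0, and between 2.84 and 6.56 in the other 6 libraries. *Mthfd1l*, which releases formate in mitochondria (chromosome 10, from 3973118 to 4167081, plus strand), went from an RPKM of 26.2 at day 0 to 8.19 at day 5 in shControl, from 31.9 to 11.7 in shKDM4D, from 18.9 to 15.5 in shNFIB and from 26.0 to 15.6 in shMLL1 cells. Unlike most of the set, *Mthfd1l* was not lower in shMLL1 cells at day 0, where its log2 ratio to shControl cells was -0.01 (-0.08 to 0.06).

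*Aldh1l2*, the mitochondrial 10-formyltetrahydrofolate dehydrogenase gene (chromosome 10, from 83487450 to 83534140, minus strand), differed most between lines at day 0. Its RPKM went from 39.0 at day 0 to 7.45 at day 5 in shControl, from 29.0 to 9.79 in shKDM4D, from 6.93 to 12.6 in shNFIB and from 10.99 to 14.82 in shMLL1 cells. At day 0 it was 5.63-fold lower in shNFIB cells (log2 ratio -2.49, interval -2.59 to -2.40) and 3.55-fold lower in shMLL1 cells (-1.83, -1.89 to -1.77). From day 0 to day 5 the ratio was -2.39 (-2.48 to -2.30) in shControl cells but 0.86 (0.75 to 0.98) in shNFIB and 0.43 (0.36 to 0.50) in shMLL1 cells. The lines that were lowest at day 0 were thus the highest at day 5.

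*Asns*, the asparagine synthetase gene and one of the genes with the core motif (chromosome 6, from 7675169 to 7693254, minus strand), went from an RPKM of 70.4 at day 0 to 12.8 at day 5 in shControl, from 77.2 to 19.6 in shKDM4D, from 24.7 to 33.1 in shNFIB and from 43.5 to 28.5 in shMLL1 cells. The order of the lines at day 0 was reversed in part at day 5, when shNFIB was highest and shControl lowest. Relative to shControl, shNFIB cells were at a log2 ratio of -1.51 (-1.60 to -1.42) at day 0, which became 1.38 (1.24 to 1.51) by day 5.

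*Pycr1*, the other gene with the motif (chromosome 11, from 120635712 to 120643769, minus strand), differed from the rest of the set. Its RPKM went from 7.91 at day 0 to 4.13 at day 5 in shControl, from 6.48 to 4.57 in shKDM4D, from 2.26 to 3.14 in shNFIB and from 2.75 to 3.28 in shMLL1 cells. Both shNFIB and shMLL1 libraries were below shControl cells on both days, with log2 ratios of -1.81 (-2.06 to -1.56) and -1.52 (-1.70 to -1.35) at day 0 and of -0.39 (-0.66 to -0.13) and -0.33 (-0.54 to -0.12) at day 5. *Pycr1* was the only gene of the 10 that did not pass 2-fold between days in shControl or shKDM4D cells.

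To ask whether the knockdown lines differ before differentiation, each was compared with shControl cells at day 0, the same control library serving all 3 lines. In shNFIB cells 8 of the 10 genes were lower by more than 2-fold and 0 were higher, where 6.05% of all genes were lower and 2.95% higher. The median log2 ratio was -1.26 (0.03 over all genes), and the exceptions were *Shmt1* at -0.30 and *Mthfd1l* at -0.47. In shMLL1 cells 3 genes, *Psph*, *Aldh1l2* and *Pycr1*, were lower by more than 2-fold and 0 were higher (7.43% and 1.67% of all genes), with a median of -0.60. In shKDM4D cells 0 of 10 genes passed 2-fold in either direction (4.26% of all genes were lower and 1.98% higher), the ratios lay between -0.57 for *Shmt2* and 0.28 for *Mthfd1l*, and the median was -0.14. *Gapdh* itself had an RPKM of 159 in shNFIB and 247 in shControl cells at day 0. Relative to *Gapdh*, the median in shNFIB cells was -0.62 (0.67 over all genes), only *Aldh1l2* and *Pycr1* were lower by more than 2-fold, and *Shmt1* and *Mthfd1l* were above shControl cells.

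At day 5, again against 1 shControl library, most genes were above shControl cells. In shNFIB cells 4 genes, *Psat1*, *Psph*, *Shmt2* and *Asns*, were higher by more than 2-fold and 0 were lower, where 5.54% of all genes were higher and 5.67% lower. *Phgdh* lay just under the limit, with a log2 ratio of 1.00 (0.90 to 1.10), and *Psph* fell just under it, to 0.99, when 1 was added to every RPKM. In shMLL1 cells *Phgdh* (3.01-fold), *Asns* (2.24-fold) and *Shmt1* (2.11-fold) were higher and 0 genes were lower (5.25% of all genes higher and 4.02% lower), and *Aldh1l2* at 1.99-fold and *Psat1* at 1.95-fold lay just under the limit. Adding 1 to every RPKM brought *Shmt1* there to 0.86 on the log2 scale, short of 2-fold. The medians were 0.96 in shNFIB and 0.95 in shMLL1 cells, against 0.09 and 0.07 over all genes. In shKDM4D cells 0 of 10 genes passed 2-fold (1.88% of all genes higher and 4.57% lower). The largest ratio was that of *Psph* at 0.68 (0.47 to 0.89). The counting interval lay above 0 for 7 genes, but the share of all genes with such an interval was not computed. Relative to *Gapdh*, only *Phgdh* was more than 2-fold higher in shMLL1 cells, and the median there was 0.59 against -0.29 over all genes.

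**Figure D2:**
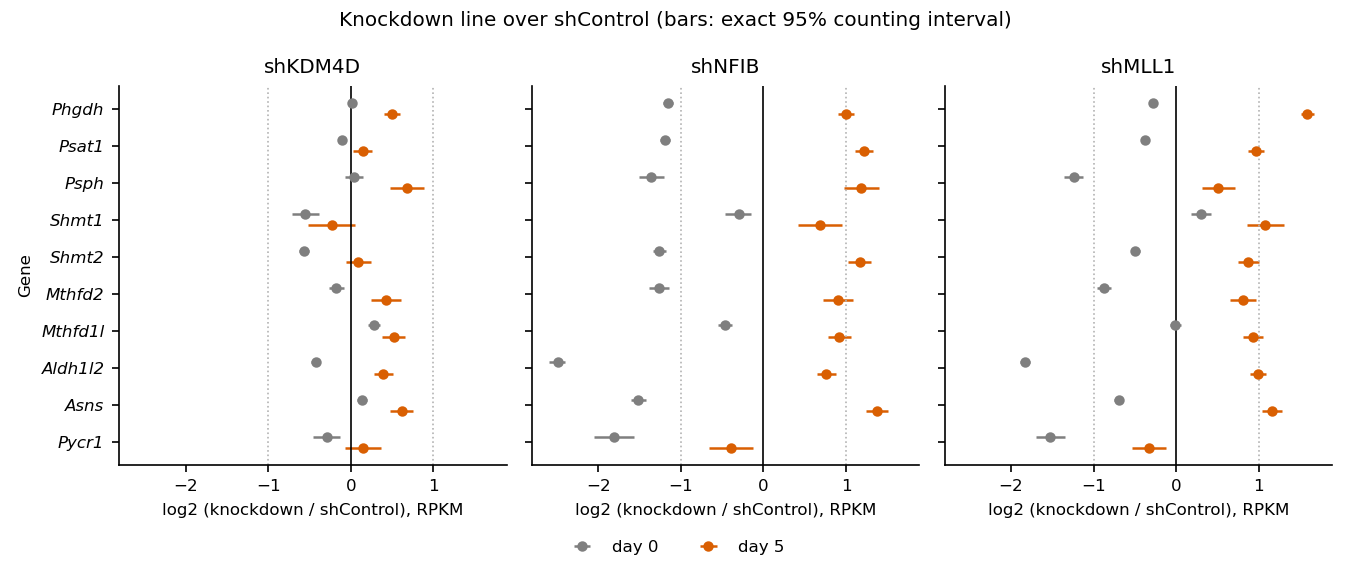
Log2 ratio of the RPKM in each knockdown line to that in shControl cells on the x axis for the 10 genes on the y axis, at day 0 (grey) and day 5 (orange), with bars for the exact 95% counting interval and dotted lines at 2-fold. In shNFIB cells all 10 points are left of 0 at day 0 and 9 are right of 0 at day 5, while in shKDM4D cells all points stay within 2-fold. Relative to *Gapdh* instead, *Shmt1* and *Mthfd1l* in shNFIB cells at day 0 are right of 0.

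The difference between each knockdown line and shControl cells in the day 5 to day 0 change, on the log2 scale, was above 0 for all 10 genes in each line. It ranged from 0.99 for *Shmt1* to 3.25 for *Aldh1l2* in shNFIB cells, with a median of 2.29. In shMLL1 cells the range was 0.77 to 2.82, with a median of 1.52, and in shKDM4D cells 0.24 to 0.82, with a median of 0.49. The counting interval of the difference lay above 0 for 10 genes in shNFIB and shMLL1 cells and for 9 in shKDM4D cells, *Shmt1* being the exception. These differences share the 2 shControl libraries, so that a high day 0 value or a low day 5 value of shControl cells enters all 3. The share of all genes with a difference above 0 was not computed, so how unusual these counts are cannot be told.

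**Figure D3:**
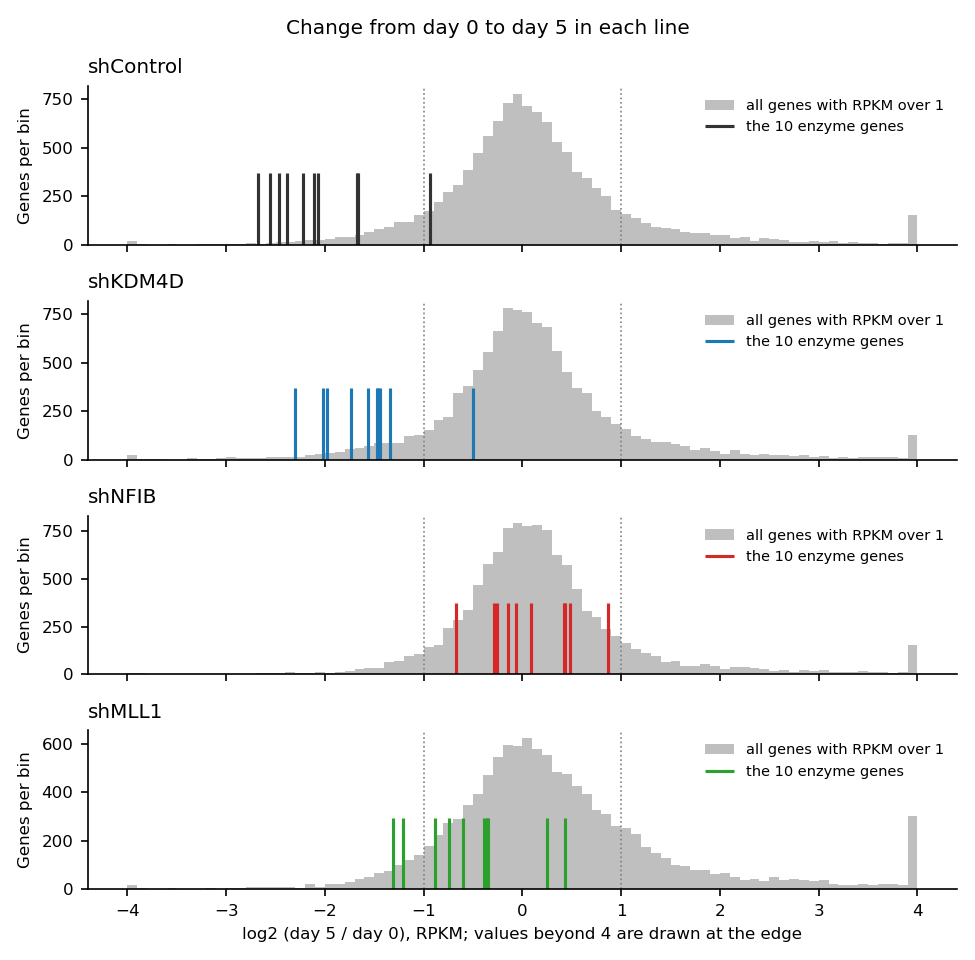
Number of genes per bin (y axis) of the log2 ratio of day 5 to day 0 (x axis) for the 11513 genes above an RPKM of 1 in some library, in each line, with the 10 enzyme genes as vertical lines and dotted lines at 2-fold. Genes without reads in a library of a line are not drawn for that line. All enzyme genes but *Pycr1* are in the left tail past 2-fold in shControl (median of the 10 of -2.16) and shKDM4D cells (median -1.52). *Pycr1* is within 2-fold there, and all 10 are within 2-fold in shNFIB cells.

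Adipocyte markers and proliferation genes were examined in the same libraries. The summed RPKM of 8 adipocyte markers was 831 in shControl cells at day 5. The shKDM4D, shNFIB and shMLL1 libraries of that day held 39.1, 12.1 and 12.5, and the 4 libraries of day 0 between 4.12 and 10.95. Of 12 proliferation genes, 12 were lower at day 5 than at day 0 by over 2-fold in shControl cells (8.56% of all genes). The number was 11 for shKDM4D (8.44%), 4 for shNFIB (4.96%) and 11 for shMLL1 (6.89%). Taken in the same order of lines, the summed RPKM of the 12 genes was 613, 759, 703 and 821 at day 0, and 226, 292, 335 and 338 at day 5. None of the 12 was lower by more than 2-fold in a knockdown line at day 0, where 4.26% to 7.43% of all genes were. In these bulk samples fewer cells that express an enzyme and less of its RNA per cell cannot be told apart. The part of cell state or proliferation in the enzyme values was not tested, at day 0 or at day 5.

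The other genes of the pathways were examined to see how far the pattern reaches. Of 20 other folate one-carbon genes, 16 had an RPKM over 1 in at least 1 library, and none of these was more than 2-fold higher or lower in any of the 6 comparisons of a knockdown line with shControl cells. In those comparisons only 1.67% to 7.43% of all genes passed 2-fold in a given direction, so few of 16 genes would be counted at that share. From day 0 to day 5 in shControl cells, 4 of the 16 fell and 1 rose (8.56% of all genes fell and 13% rose). *Mthfd1*, the cytosolic trifunctional enzyme, had an RPKM of 21.4 at day 0 and 8.90 at day 5. The gene that rose was *Ggh*, a lysosomal folate hydrolase, with an RPKM of 30.4 and 73.7, and its log2 change was also above 1 for shKDM4D (1.41), for shNFIB (1.14) and for shMLL1 (1.45). The median change of the 16 genes in shControl cells was -0.50, and in shNFIB cells at day 0 their median ratio to shControl cells was -0.04.

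Among 17 other genes of amino acid synthesis, 15 passed the RPKM filter. At day 0, 4 of them were lower in shNFIB cells and 4 in shMLL1 cells, *Aldh18a1*, *Gpt2* and *Cth* being in both sets. The shares of all genes lower by more than 2-fold there were 6.05% and 7.43%. *Cth*, cystathionine gamma-lyase of cysteine synthesis, stood at 9.93 RPKM in the shControl library of day 0, 4.71 in shKDM4D, 0.864 in shNFIB and 1.43 in shMLL1. *Aldh18a1*, which acts upstream of *Pycr1* in proline synthesis, stood at 32.7 RPKM in shControl, 14.0 in shNFIB and 14.6 in shMLL1 on the same day. In the opposite direction, *Glul*, glutamine synthetase, rose from an RPKM of 9.22 at day 0 to 132 at day 5 in shControl cells. *Glul* also rose by more than 2-fold in shKDM4D, shNFIB and shMLL1 cells, whose day 5 libraries held 72.9, 23.7 and 60.6. The genes of this list that passed 2-fold from day 0 to day 5 in shControl cells were 5 lower and 2 higher, with a median of -0.27 over the 15 genes. Over all genes, 8.56% were lower and 13% higher.

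Of 13 regulators and targets of the ATF4 pathway, 12 were analysed here. *Atf4* itself went from an RPKM of 187 at day 0 to 71.9 at day 5 in shControl, from 212 to 109 in shKDM4D, from 70.9 to 105 in shNFIB and from 104 to 126 in shMLL1 cells. The day 0 values were high in shControl and shKDM4D cells and low in shNFIB and shMLL1 cells, the same order as for *Asns*. *Trib3*, a pseudokinase induced by ATF4, went from an RPKM of 27.9 to 3.21 in shControl cells and from 24.2 to 6.71 in shKDM4D cells, and from 2.29 to 9.33 in shNFIB cells and from 4.0 to 17.3 in shMLL1 cells. *Chac1*, a glutathione-degrading enzyme of the same response, had a log2 ratio to shControl cells of -2.66 (-2.96 to -2.37) at day 0 and 2.38 (2.02 to 2.76) at day 5 in shNFIB cells. Over the list, 6 genes were lower by more than 2-fold and 0 higher in shNFIB cells at day 0 (6.05% and 2.95% of all genes). In shMLL1 cells 5 were lower and 0 higher (7.43% and 1.67%). At day 5, 2 genes were higher in shNFIB cells (5.54% of all genes) and 4 in shMLL1 cells (5.25%), with 0 lower in either (5.67% and 4.02%). The shKDM4D counts were 1 lower and 0 higher at day 0 (4.26% and 1.98% of all genes), and 1 lower and 2 higher at day 5 (4.57% and 1.88%). From day 0 to day 5, 5 fell and 1 rose in shControl cells and 3 fell in shKDM4D cells, while 4 rose in shNFIB and 5 rose in shMLL1 cells, with 0 falling in these 2 lines. Of all genes, 8.56% fell and 13% rose in shControl cells, and 8.44% fell and 12.8% rose in shKDM4D cells. The shares were 12.6% risen and 4.96% fallen in shNFIB cells, and 20.4% risen and 6.89% fallen in shMLL1 cells. mRNA levels do not give the amount of ATF4 protein, which was not measured here.

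**Figure D4:**
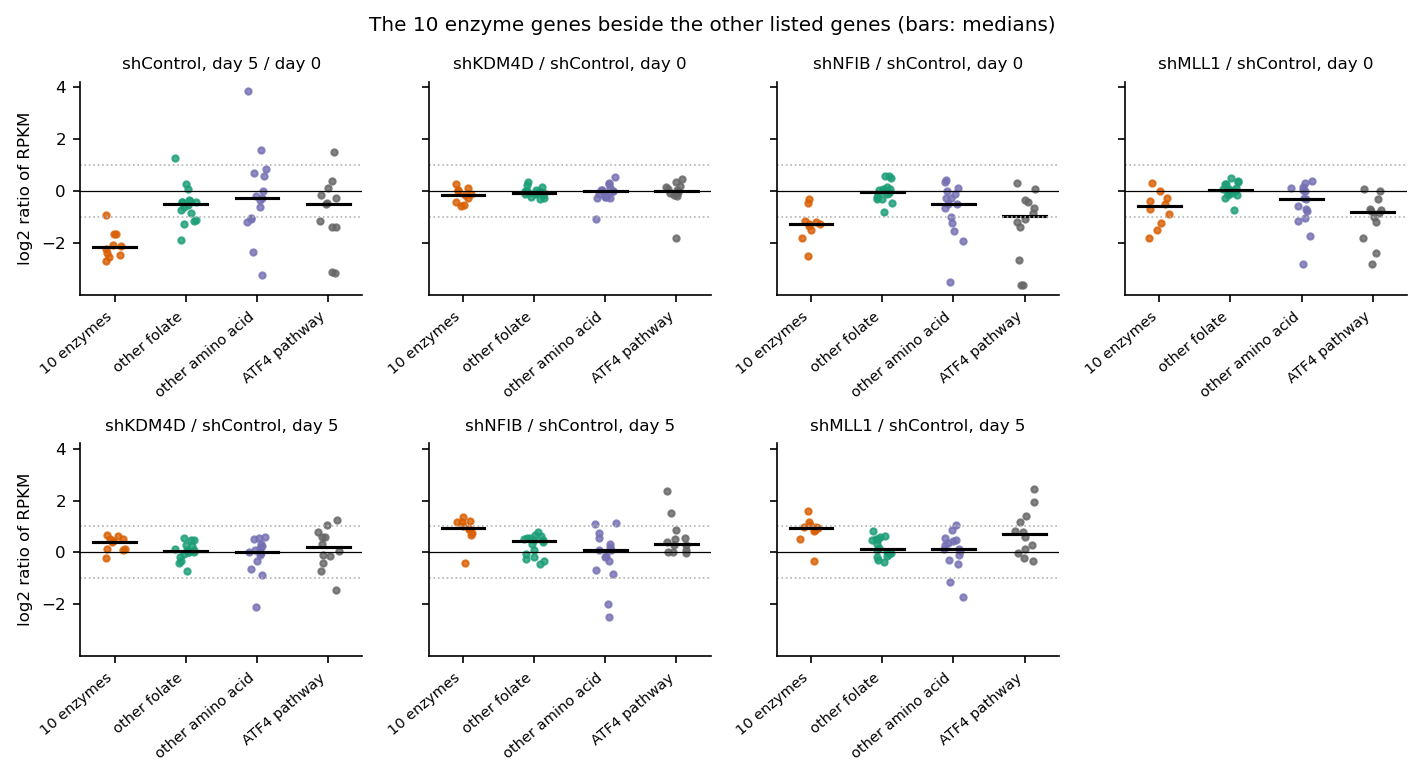
Log2 ratio of RPKM on the y axis for the change from day 0 to day 5 in shControl cells and for each knockdown line over shControl cells at day 0 and day 5, with 1 point per gene for the 10 enzymes, 16 other folate genes, 15 other amino acid synthesis genes and 12 ATF4 pathway genes, bars at the medians and dotted lines at 2-fold. All other folate genes are within 2-fold in the knockdown comparisons, where 1.67% to 7.43% of all genes pass in a given direction. The median of the 10 enzymes is -1.26 in shNFIB cells at day 0 and 0.96 at day 5.

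Within the set, the 10 genes varied across the 8 libraries to unequal degrees. The highest RPKM was 6.41 times the lowest for *Shmt2*, 6.05 times for *Asns* and 3.50 times for *Pycr1*. The lowest library was shControl at day 5 for 7 genes, while it was shNFIB at day 0 for *Aldh1l2* and *Pycr1* and shKDM4D at day 5 for *Shmt1*. Pearson's r between a gene and the mean of the other 9, over the 8 libraries on the log2(RPKM + 0.1) scale, was 0.99 for *Mthfd2*, 0.98 for *Asns* and 0.96 for *Psat1*, and it was lowest for *Shmt1* (0.72) and *Pycr1* (0.44). These coefficients describe libraries that share lines and days.

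By the same scale, the genes outside the set whose pattern was most like the mean of the 10 were sought among 6622 genes with a mean RPKM of at least 5. The 10 with the highest r were *Gars* (0.99), *Bid* (0.99), *Tars* (0.98), *Iars* (0.97), *Nars* (0.97), *Exosc3* (0.97), *Cars* (0.96), *Eif3c* (0.96), *Phf10* (0.95) and *Wars* (0.95). Of these, *Gars*, *Tars*, *Iars*, *Nars*, *Cars* and *Wars* encode aminoacyl-tRNA synthetases, which load glycine, threonine, isoleucine, asparagine, cysteine and tryptophan onto their tRNAs. *Gars* went from an RPKM of 96.8 at day 0 to 34.8 at day 5 in shControl, from 99.3 to 39.9 in shKDM4D, from 46.2 to 51.9 in shNFIB and from 64.6 to 53.4 in shMLL1 cells. *Gars* was chosen for this likeness, so its values are a description.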

How the data were processed

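RNA-seq was performed on 8 libraries of C3H10T1/2 cells, 1 per line and day. Per the study's methods, libraries were made from total RNA with the SMARTer Stranded RNA-Seq Kit, sequenced on a HiSeq 2500 and mapped by the authors to GRCm38 with CLC Genomics Workbench 11.0.1. The deposited values are RPKM per gene symbol. The study's methods name a quantile normalization, which was not visible in the deposited values. The gene annotation behind them is not given in the sources used here.

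Multiplied by GENCODE M21 exon lengths (40851 of 41325 symbols matched), between 95.7% and 96.5% of the RPKM values worth 1 to 1000 reads were within 0.02 of an integer number of reads. The mapped reads were 26600000 and 19300000 (shControl, days 0 and 5), 19500000 and 21600000 (shKDM4D), 18700000 and 15800000 (shNFIB), and 38200000 and 38100000 (shMLL1). Ratios were taken on RPKM without a pseudocount, with exact 95% Clopper-Pearson intervals on the recovered reads and Wald intervals for differences of changes. Both cover counting error only, and PCR duplicates are not independent. Shares of all genes were taken over the 11513 genes above an RPKM of 1 in any library. Within a line, and between a line and shControl cells, a 2-fold limit stood in for a test, as 1 library stood on each side. The day change over the 4 lines was tested with limma 3.58.1 (R 4.3.3, line as a block, trended prior, 3 residual degrees of freedom), a test added after the data were seen.

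All 10 genes and the 3 targeted genes were named. From each other list, counts past 2-fold were given and at most 3 genes per comparison were named among those with the largest log2 ratio and an RPKM over 5. *Atf4*, *Mthfd2l*, *Thy1* and *Gapdh* were named outside this rule, after their values were seen. The members and lists were chosen with earlier results of these data known. Alternatives were 1 added to each RPKM, median-of-ratios and quantile scaling, the ratio to *Gapdh*, and other filters. Python 3.11.15, numpy 2.4.6, pandas 2.3.3, scipy 1.17.1 and matplotlib 3.10.9 were used, and the interval and limma code was tested on simulated data.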

Additional observations from a re-analysis of the deposited data

Results flagged for a closer look

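For the genes below, a knockdown line and shControl cells moved in opposite directions between the days, or the line lay on opposite sides of shControl cells at day 0 and day 5. Each value is the difference of the log2 changes from day 0 to day 5, the line minus shControl cells. The difference was not tested across replicates, as each value rests on 4 single libraries, and all values share the 2 shControl libraries.

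In shNFIB cells the difference was 2.15 for *Phgdh*, 2.41 for *Psat1*, 2.54 for *Psph*, 0.99 for *Shmt1*, 2.42 for *Shmt2*, 2.16 for *Mthfd2*, 1.39 for *Mthfd1l*, 3.25 for *Aldh1l2*, 2.89 for *Asns* and 1.41 for *Pycr1*. *Psph*, *Aldh1l2*, *Asns* and *Pycr1* were higher at day 5 than at day 0 with intervals above 0, whereas shControl cells fell or, for *Pycr1*, were lower. Relative to *Gapdh* only *Aldh1l2* of these 4 stayed higher at day 5.

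In shMLL1 cells it was 1.87 for *Phgdh*, 1.34 for *Psat1*, 1.75 for *Psph*, 1.37 for *Shmt2*, 1.68 for *Mthfd2*, 2.82 for *Aldh1l2*, 1.86 for *Asns* and 1.19 for *Pycr1*. Here *Aldh1l2* and *Pycr1* were higher at day 5 than at day 0, although *Pycr1* was lower under quantile normalization. In shKDM4D cells it was 0.26 for *Psat1*, 0.60 for *Mthfd2* and 0.82 for *Aldh1l2*, each below shControl cells at day 0 and above them at day 5 by less than 2-fold.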

How the results depend on the processing

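The pairing of days within a line was used only in the limma fit over the 4 lines, added after the data were seen: 4 genes were lower with the line block, 7 with no line block, 9 relative to *Gapdh*, 0 with no filter on RPKM (4 at an unadjusted p under 0.05), and 1 to 8 when 1 line was left out in turn. For the fits other than the main one, the shares of all genes called were not computed. The mean change of *Pycr1* ranged from -0.39 without the shNFIB libraries to 0.070 without the shControl libraries. No ratio past 2-fold turned to the other side of 0 under the scalings that were run. Adding 1 to every RPKM ended the call of *Psph* in shNFIB and of *Shmt1* in shMLL1 cells at day 5, leaving 3 and 2 genes higher. Relative to *Gapdh*, the median change from day 0 to day 5 was -1.05 in shKDM4D, -0.55 in shNFIB (1 gene lower by more than 2-fold) and -0.62 in shMLL1 cells. Against shControl cells it gave medians of -0.54 for shKDM4D, -0.62 for shNFIB (2 genes lower) and -0.81 for shMLL1 at day 0, and of 0.59 for shMLL1 (1 gene higher) at day 5. *Gapdh* ranged from an RPKM of 159 to 326, and the scale moved the median of all genes by the same amount as the enzymes. Median-of-ratios scaling gave -0.71 for the change in shMLL1 cells and -0.50 for their ratio at day 0, and quantile normalization gave -0.64 for the change, and the cause was not tested. Ratios short of 2-fold changed sign. Between the days these were *Mthfd2* in shNFIB cells under median-of-ratios scaling, *Psph*, *Mthfd2*, *Asns* and *Pycr1* there relative to *Gapdh*, and *Pycr1* in shMLL1 cells under quantile normalization. At day 0 they were *Phgdh* in shKDM4D cells under quantile normalization, *Phgdh*, *Psph*, *Mthfd1l* and *Asns* there and *Shmt1* and *Mthfd1l* in shNFIB cells relative to *Gapdh*, and *Mthfd1l* in shMLL1 cells under median-of-ratios scaling. Without a filter on RPKM, 6 of the 20 shares of all genes moved by more than 1.5 times. With 1 library per condition, the spread between cultures or clones of 1 line could not be estimated, and the read depth limits only the counting error.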
